A study of Mus musculus with 8 samples.

Results

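The genes of antigen presentation were followed in white adipocytes of mice with and without the transcriptional coactivators YAP and TAZ. The members were the protein-coding rows of the deposited table whose symbol begins with H2-, together with B2m, Tap1, Tap2, Tapbp, Cd74 and Ciita. They number 33 of 30387 genes, of which 21 belong to class I, 11 to class II and 1, H2-Ke6, lies in the region but belongs to neither class. A further 9 rows with an H2- symbol carry another biotype, mostly pseudogene, and were left out. On the GRCm38 genome 30 of the 33 members lie on chromosome 17 between positions 33915899 and 37483552, a stretch of 3.57 Mb that holds the mouse major histocompatibility complex (MHC).

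Adipocytes were isolated from epididymal fat of male Ad-Yap/Taz-KO mice (KO), which carry Yap fl/fl and Taz fl/fl alleles and Cre recombinase driven by the adiponectin promoter, and of WT littermates. The promoter directs recombination to adipocytes, so other cells of the fat pad keep both genes. Both genotypes were fed normal chow (SD) or HFD for 4 weeks from week 5 of age as the description of the data set gives it, and the methods of the study state a slightly later start. This gives 4 groups with 2 libraries each: WT on SD, KO on SD, WT on HFD and KO on HFD. The 2 libraries of a group come from separate mice. The methods of the study name floxed littermates as controls for a tamoxifen-inducible line, and whether the WT mice of these libraries carried floxed alleles is not given in the sources used here.

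MHC class I molecules consist of a heavy chain and beta-2 microglobulin and show peptides from inside the cell to CD8 T cells. The peptides are cut by the proteasome, carried into the endoplasmic reticulum by the TAP transporter and loaded with the help of tapasin. Nearly all nucleated cells make class I molecules. MHC class II molecules consist of an alpha and a beta chain, are guided by the invariant chain CD74, receive their peptide with the help of H2-DM and are inspected by CD4 T cells. They are typical of macrophages, dendritic cells and B cells, and their genes are switched on by the coactivator CIITA, whereas NLRC5 serves class I genes. In fat, class II molecules are best known from adipose tissue macrophages, although adipocytes have been described to make them too.

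The unit throughout is the normalized count, which is the number of reads on the exons of a gene divided by a size factor of its library and rounded by the authors. The libraries hold 14.0 to 22.3 M reads on genes, and 1 read is worth between 0.7954 and 1.135 normalized counts. Genes with a mean of at least 5 were tested with limma on log2 of the value plus 1, and the p-values were adjusted over all 18800 tested genes by the Benjamini-Hochberg method. A gene is called where this adjusted p is 0.05 or less and the log2 fold change is 0.59 or more in size. Of the members 27 were tested. The 6 others, H2-Q1, H2-T3, H2-M10.2, H2-M5, H2-Eb2 and H2-Ke6, have values between 0 and 18 in every library. A log2 fold change is always on the log2(value + 1) scale, and SE is its standard error.

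Several properties of the libraries bear on every result. Wwtr1, which encodes TAZ, had 2060 and 2707 normalized counts in KO mice on HFD against 7121 and 6807 in WT mice, and 2441 and 1957 on SD against 5594 and 4743. Yap1 was reduced less, with a ratio of the means of 0.753 on HFD and 0.613 on SD. Among genes with values of 1000 to 5000 the 2 libraries of WT mice on HFD resemble each other more than any other pair, with a difference 6.18 times the Poisson expectation against 32.35 to 104.05 times in the other groups. Among genes with values of 5 to 20 they do not stand out, with 4.87 times against 4.66 to 6.4. Both values are printed for this group, and where counting the pair as 1 sample changes the call of a member, or a count printed below, this is said. Scaling the libraries to the same total moves the median log2 fold change of all tested genes between the genotypes on HFD from 0.095 to 0.467, and that between the diets in WT mice from -0.078 to -0.476.

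The 200 bases before the start of 5 genes show the letters through which MHC promoters are known to be recognized. H2-Aa, H2-Eb1 and H2-DMb1 stand for class II, and B2m and H2-D1 for the light and heavy chain of class I. The sequences are RefSeq promoters of GRCm38.p6, 5′ to 3′ on the strand of the gene, at chr17:34287824-34288023 on the minus strand for H2-Aa, and on the plus strand at chr17:34305667-34305866 for H2-Eb1, chr17:34152991-34153190 for H2-DMb1, chr2:122147487-122147686 for B2m and chr17:35262894-35263093 for H2-D1. Capitals mark the Y box (ATTGG, or CCAAT on the other strand) in all 5 genes and TGACG with its complement CGTCA, which overlap in H2-Aa, in H2-Aa, B2m and H2-D1. They also mark GCAAC, the letters at the core of the X box, in H2-Aa, H2-Eb1 and H2-D1, an interferon response element (GAAA, any 2 bases, GAAA) in B2m and enhancer A (GGGG, ATT and CCCC in a row) in H2-D1. GCAAC lies before the Y box in H2-Aa and H2-Eb1, but after both Y boxes and 14 bases before the start in H2-D1, where the letters are not placed as in an X box.
H2-Aa: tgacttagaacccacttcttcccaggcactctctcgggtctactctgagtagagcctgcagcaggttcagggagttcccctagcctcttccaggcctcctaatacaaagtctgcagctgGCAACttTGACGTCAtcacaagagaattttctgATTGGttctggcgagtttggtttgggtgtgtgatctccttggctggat
H2-Eb1: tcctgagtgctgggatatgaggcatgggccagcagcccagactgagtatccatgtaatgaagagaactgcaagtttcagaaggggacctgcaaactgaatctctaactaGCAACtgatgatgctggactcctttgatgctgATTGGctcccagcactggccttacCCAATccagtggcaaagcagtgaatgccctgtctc
H2-DMb1: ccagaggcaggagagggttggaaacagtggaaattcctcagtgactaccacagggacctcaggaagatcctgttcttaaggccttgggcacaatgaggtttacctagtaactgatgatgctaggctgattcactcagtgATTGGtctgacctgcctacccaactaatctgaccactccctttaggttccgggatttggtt
B2m: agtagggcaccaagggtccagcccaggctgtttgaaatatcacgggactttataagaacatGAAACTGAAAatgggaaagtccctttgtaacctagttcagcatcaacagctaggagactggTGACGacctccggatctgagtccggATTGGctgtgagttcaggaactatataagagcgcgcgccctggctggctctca
H2-D1: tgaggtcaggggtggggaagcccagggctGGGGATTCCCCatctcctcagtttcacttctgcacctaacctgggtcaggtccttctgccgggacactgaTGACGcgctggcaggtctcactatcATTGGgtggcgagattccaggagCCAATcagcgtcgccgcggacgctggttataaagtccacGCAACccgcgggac

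Short motifs are common, so each was also searched on both strands in all 32851 RefSeq promoters of 300 bases, which reach 250 bases before and 50 bases after the start. ATTGG occurs in 37.4% of them, GCAAC in 35.2%, TGACG in 20.8% and the interferon response element in 3.44%. Enhancer A occurs in 10 promoters (0.0304%), and H2-K1, H2-D1 and H2-Q6 are among these genes. In H2-Aa and H2-Eb1 the first letter of GCAAC precedes that of ATTGG by 33 and 32 bases, a spacing that was noticed in these sequences and then searched for. It occurs in 48 promoters (0.146%), which include H2-Oa and H2-Eb2 besides H2-Aa and H2-Eb1. The window of H2-DMb1 holds ATTGG but neither GCAAC nor TGACG in these letters. Promoters of 27 of the 33 members were used, and those of H2-Ab1, Cd74, Ciita, Tap2, H2-T24 and H2-Q1 were not used here. Any entry on chromosome 18, which holds Cd74, was left out of the search in members. A match of letters describes the sequence and is no measurement of binding.

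Class I transcripts outweighed class II transcripts in every library. The mean level in WT mice on SD, in parts per 1000000 normalized counts of the library (ppm) and per kb of exon, was 828 for B2m, 386 for the heavy chain H2-D1 and 237 for the heavy chain H2-K1, followed by 55.5 for H2-Q4 and 44.1 for Tapbp. The most abundant class II genes on the same scale were Cd74 with 42.7, H2-Ab1 with 27, H2-Eb1 with 21.8 and H2-Aa with 10.7. In this order B2m, H2-D1 and H2-K1 are separated by their library values, whereas H2-Q4 meets the spread of H2-Q6, and Tapbp and Cd74 lie within it. The values per kb are 62.0 and 48.9 for H2-Q4, 44.2 and 44.0 for Tapbp, 43.2 and 42.2 for Cd74 and 48.9 and 31.4 for H2-Q6. Ciita stood at 0.274 per kb, which is 25th of the 33 members. In KO mice on HFD the order was different, and Cd74 at 163 and H2-Ab1 at 78.5 per kb stood above every class I gene except B2m at 682, H2-D1 at 373 and H2-K1 at 211.

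On HFD genes of both classes passed the test between the genotypes. Of 27 tested members 13 were higher and 3 lower in KO than in WT mice, beside 17.1% of all tested genes called higher and 15.1% called lower. Class II rose in 7 of 10 tested genes with none lower, and the median log2 fold change of the 10 was 2.48 against 0.09 over all tested genes. Class I rose in 6 of 17 tested genes and fell in 3, with a median of 0.12. With the WT pair on HFD counted as 1 sample, 11 members were called higher and 2 lower, beside 10.2% and 8.14% of all genes. For class I this left 4 higher and 2 lower, and for class II all 7.

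Cd74, the invariant chain that escorts class II molecules, was the most abundant class II transcript per kb of exon. In normalized counts H2-Ab1 exceeded it in 1 KO library (2828 against 2715) and 1 WT library (1136 against 1124) on SD. Its normalized counts were 4383 and 4342 in KO mice on HFD, 651 and 664 in WT mice on HFD, 2715 and 1795 in KO mice on SD and 1124 and 1124 in WT mice on SD. The knockout libraries lie above the WT libraries on each diet, and the distance is wider on HFD, where the mean was 6.63-fold higher (log2 fold change 2.73, SE 0.18, limma adjusted p = 4.7e-07).

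H2-Ab1 encodes the beta chain of the I-A molecule and H2-Aa its alpha chain. H2-Ab1 had 3136 and 3289 normalized counts in KO mice on HFD, 484 and 445 in WT mice on HFD, 2828 and 1677 in KO mice on SD and 1040 and 1136 in WT mice on SD. H2-Aa had 1799 and 2120, 299 and 392, 1390 and 950, and 555 and 721 in the same order. Both chains were lowest in WT mice on HFD and highest in KO mice on HFD, with no overlap between these groups. The rise on HFD was 2.79 (SE 0.21, limma adjusted p = 1.2e-06) for H2-Ab1 and 2.51 (SE 0.22, limma adjusted p = 4.4e-06) for H2-Aa on the log2 scale.

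H2-Eb1, the beta chain of the I-E molecule, had 2089 and 2250 normalized counts in KO mice on HFD, 426 and 445 in WT mice on HFD, 1600 and 1154 in KO mice on SD and 600 and 733 in WT mice on SD. The order of the groups was that of the I-A chains. On HFD the mean was 4.98-fold higher in the knockout (log2 fold change 2.31, SE 0.19, limma adjusted p = 2.1e-06). H2-Ea, the gene of the I-E alpha chain, is not among the members, so these values do not measure the I-E molecule.

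The chains of H2-DM, which exchange peptides on class II molecules, were far less abundant. H2-DMa had 182 and 183 normalized counts in KO mice on HFD, 32 and 19 in WT mice on HFD, 171 and 146 in KO mice on SD and 32 and 77 in WT mice on SD. H2-DMb1 had 188 and 185, 19 and 12, 111 and 40, and 29 and 50 in the same order. The HFD groups stand clearly apart, whereas on SD the H2-DMb1 libraries of the genotypes overlap. On HFD the log2 fold change was 2.84 (SE 0.45, limma adjusted p = 0.00044) for H2-DMa and 3.54 (SE 0.54, limma adjusted p = 0.00032) for H2-DMb1. H2-DMb1 shares 15.8% of its 75-base stretches with H2-DMb2, and reads that fit both places were excluded by the authors. Exons of Brd2 overlap 10.4% of the H2-DMa exons on the opposite strand, and the strand setting of the counting is not given in the sources used here.

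Ciita, the coactivator that switches on class II genes, moved with them. Its normalized counts were 151 and 151 in KO mice on HFD, 36 and 20 in WT mice on HFD, 142 and 100 in KO mice on SD and 39 and 43 in WT mice on SD. The knockout libraries lie above all WT libraries whatever the diet. On HFD the log2 fold change was 2.45 (SE 0.41, limma adjusted p = 0.00071). The 3 tested class II genes that were not called, H2-Oa, H2-Ob and H2-DMb2, had values of 0 to 83 normalized counts, and the 2 H2-O chains restrain H2-DM. These 7 calls of class II genes remained with each of the 8 libraries left out in turn and under every other setting tried.

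**Figure D1:**
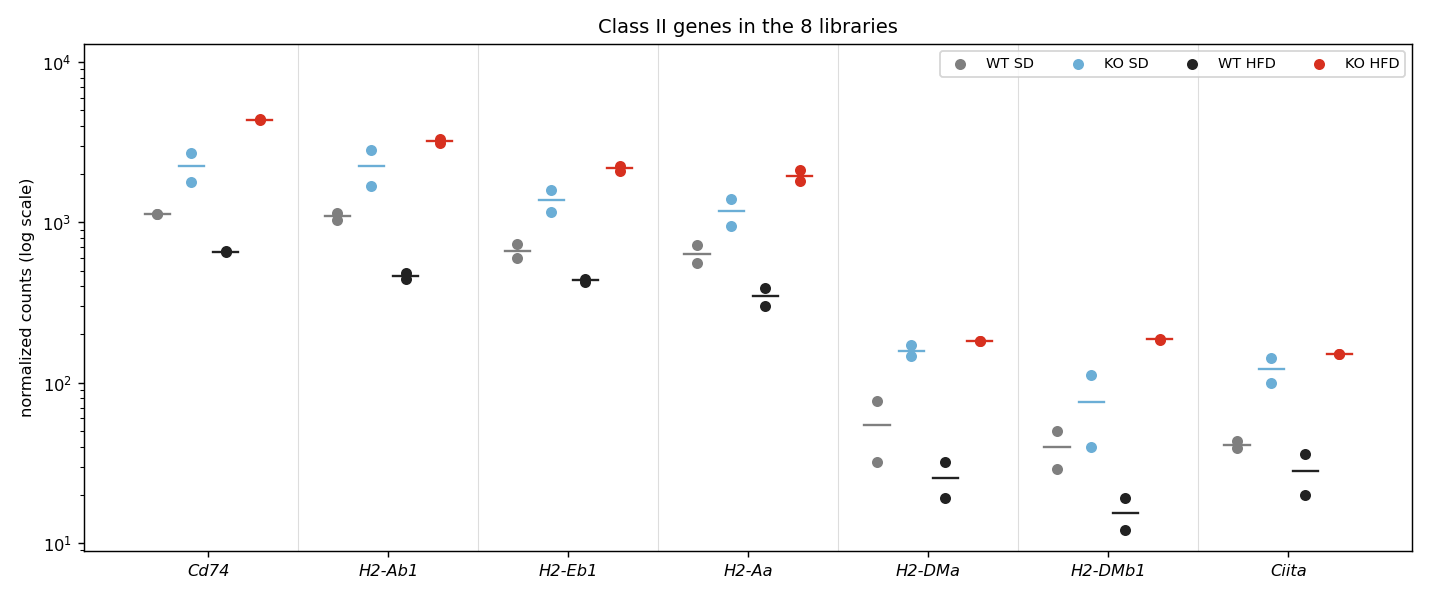
Normalized counts (log scale) of the 7 class II genes with a mean of at least 50 in each of the 8 libraries. Points are libraries, short lines are group means, KO stands for Ad-Yap/Taz-KO, and for all 7 genes the libraries of WT mice on HFD, such as 651 and 664 for Cd74, lie below those of KO mice on HFD, such as 4383 and 4342.

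The classical class I heavy chains, which present peptides to CD8 T cells, did not pass the test between the genotypes on HFD. H2-K1 had 11886 and 8190 normalized counts in KO mice on HFD, 9160 and 9014 in WT mice on HFD, 10354 and 11758 in KO mice on SD and 12399 and 9420 in WT mice on SD. H2-D1 had 18512 and 12620, 15627 and 16009, 18509 and 18377, and 16786 and 14391 in the same order. The WT libraries on HFD lie between the 2 knockout libraries for both genes. The log2 fold change on HFD was 0.12 (SE 0.20, limma adjusted p = 0.67) for H2-K1 and -0.05 (SE 0.19, limma adjusted p = 0.87) for H2-D1. The H2-D1 value turns to 0.34 with libraries scaled to the same total and to 0.58 with quantile normalization, and H2-K1 is called higher at 0.61 with the latter.

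B2m, the light chain of class I molecules, passed the test between the genotypes on HFD where the classical heavy chains did not. Its normalized counts were 10249 and 8585 in KO mice on HFD, 20665 and 20709 in WT mice on HFD, 11411 and 11488 in KO mice on SD and 10972 and 11372 in WT mice on SD. WT mice on HFD stand alone, and the 6 other libraries lie close together. Against the WT libraries on HFD the knockout was lower, with a log2 fold change of -1.14 (SE 0.15, limma adjusted p = 0.00013). With libraries scaled to the same total the value was -0.76, and -1.22 after subtracting the median of all genes. With quantile normalization it was -0.58, just short of the limit for a call.

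Tapbp encodes tapasin, which holds class I molecules at the TAP transporter. It had 2988 and 2640 normalized counts in KO mice on HFD, 4011 and 4473 in WT mice on HFD, 2694 and 3075 in KO mice on SD and 2486 and 2537 in WT mice on SD. As for B2m, WT mice on HFD had the highest values. The log2 fold change between the genotypes on HFD was -0.59 (SE 0.15, limma adjusted p = 0.0082), and the call was lost with the WT pair counted as 1 sample (limma adjusted p = 0.072), under each of the 3 other scalings (-0.21 to -0.51), and without WT replicate 2 (-0.51) or KO replicate 2 (-0.5) on HFD. Exons of Gm19412 overlap 24.9% of the Tapbp exons on the opposite strand.

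Tap1 and Tap2 form the transporter itself. Tap1 had 614 and 736 normalized counts in KO mice on HFD, 559 and 456 in WT mice on HFD, 799 and 767 in KO mice on SD and 777 and 743 in WT mice on SD. Tap2 had 584 and 447, 503 and 565, 510 and 624, and 659 and 556 in the same order. Tap1 was lowest in WT mice on HFD, and the Tap2 libraries overlap in all 4 groups. On HFD the log2 fold change was 0.41 (SE 0.18, limma adjusted p = 0.094) for Tap1, which is called higher at 0.80 with libraries scaled to the same total, and -0.06 (SE 0.20, limma adjusted p = 0.84) for Tap2, which turns positive under each of the 3 other scalings (0.02 to 0.32).

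The nonclassical heavy chains, several of which present to innate-like lymphocytes, split on HFD into 6 that rose, 1 that fell and 4 that were not called, beside 17.1% of all tested genes called higher and 15.1% called lower. Counting the WT pair on HFD as 1 sample left 4 higher and 1 lower. H2-Q4 had 1596 and 1982 normalized counts in KO mice on HFD, 1002 and 1059 in WT mice on HFD, 1888 and 1874 in KO mice on SD and 2498 and 2016 in WT mice on SD. H2-Q6 had 1513 and 1480, 438 and 488, 1556 and 715, and 1582 and 1038 in the same order. For both genes WT mice on HFD are the low group. The log2 fold change on HFD was 0.79 (SE 0.17, limma adjusted p = 0.003) for H2-Q4 and 1.69 (SE 0.30, limma adjusted p = 0.00092) for H2-Q6. Of the 75-base stretches of H2-Q6 and H2-Q7 17.9% and 17% also occur in another gene, and since reads that fit several places were excluded, both values may miss reads and are uncertain. Gm11131 overlaps 19.1% of the H2-Q4 exons on the opposite strand.

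H2-Q7 had 556 and 589 normalized counts in KO mice on HFD, 333 and 232 in WT mice on HFD, 667 and 434 in KO mice on SD and 633 and 358 in WT mice on SD. It was higher in the knockout on HFD (log2 fold change 1.04, SE 0.29, limma adjusted p = 0.015), but not with the WT pair as 1 sample (limma adjusted p = 0.078), nor without WT replicate 2 (0.78) or KO replicate 2 (1.00) on HFD. H2-T23, whose product Qa-1 is the mouse relative of HLA-E, was steadier. It had 963 and 880 normalized counts in KO mice on HFD, 479 and 473 in WT mice on HFD, 908 and 645 in KO mice on SD and 822 and 622 in WT mice on SD. On HFD it was 1.94-fold higher in the knockout (log2 fold change 0.95, SE 0.21, limma adjusted p = 0.0035), and the call held with the WT pair as 1 sample.

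H2-M3, which presents formylated peptides, had 156 and 158 normalized counts in KO mice on HFD, 42 and 52 in WT mice on HFD, 128 and 53 in KO mice on SD and 91 and 44 in WT mice on SD. The log2 fold change on HFD was 1.73 (SE 0.47, limma adjusted p = 0.014). Its call was lost with the WT pair as 1 sample (limma adjusted p = 0.072) and without any 1 of the 4 HFD libraries, where the values were 1.58 and 1.88 without WT replicate 1 and 2 and 1.74 and 1.72 without KO replicate 1 and 2. H2-M2 was nearly absent from WT mice on HFD, with 1 and 0 normalized counts, against 55 and 43 in KO mice on HFD, 50 and 15 in KO mice on SD and 11 and 8 in WT mice on SD. Its ratio on HFD was 97.4, with an exact 95% counting interval of 17.1 to 3880 that rests on 1 read in WT mice and covers counting error only (limma adjusted p = 0.00066).

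H2-T22, a ligand of gamma-delta T cells, went the other way. It had 619 and 411 normalized counts in KO mice on HFD, 1176 and 1250 in WT mice on HFD, 598 and 786 in KO mice on SD and 735 and 630 in WT mice on SD. WT mice on HFD again stand apart, as the high group, and the log2 fold change of the knockout was -1.26 (SE 0.22, limma adjusted p = 0.00081). Of its 75-base stretches 18.5% also occur in another gene, chiefly H2-T10, and exons of A930015D03Rik overlap 29.4% of its exons on the opposite strand, and since the authors excluded reads over several genes or places, its value may miss reads.

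H2-T24 had 188 and 216 normalized counts in KO mice on HFD, 227 and 251 in WT mice on HFD, 212 and 172 in KO mice on SD and 151 and 173 in WT mice on SD. H2-Q10, whose product is known as a secreted class I chain of the liver, had 157 and 107, 172 and 193, 50 and 67, and 109 and 109 in the same order. Neither was called in any comparison. H2-Q2 and H2-M9 were tested with values of 3 to 43 normalized counts and were not called in any comparison either.

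**Figure D2:**
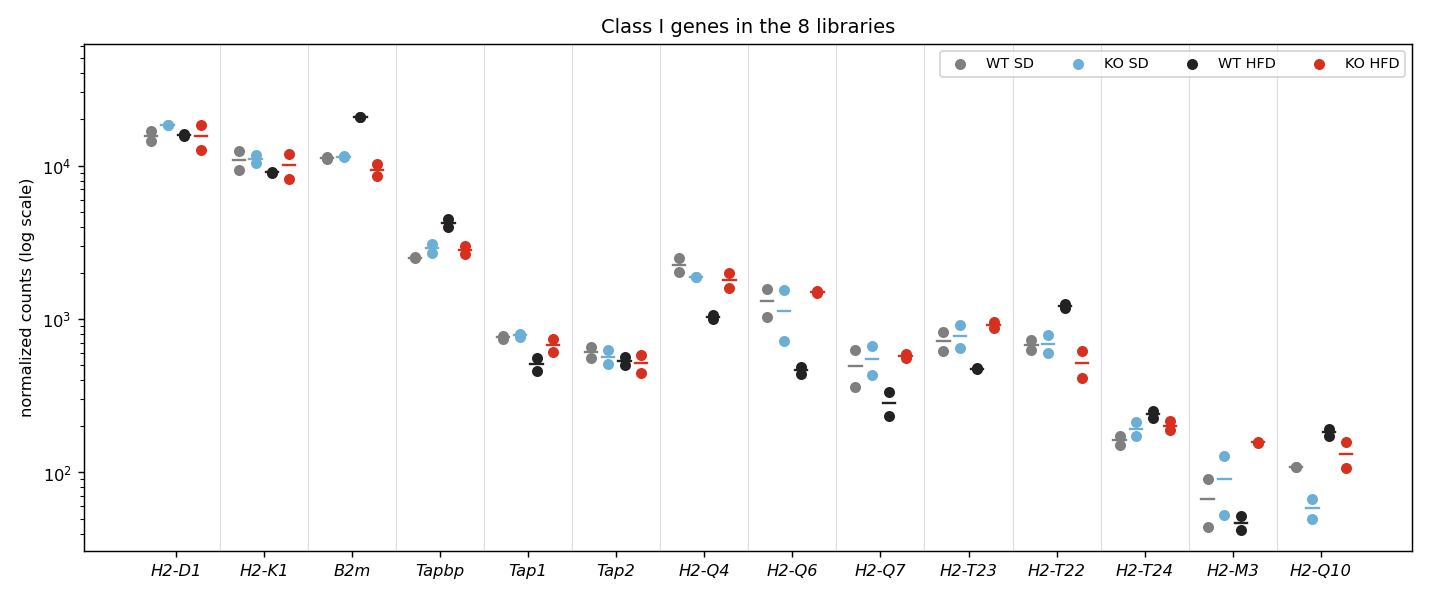
Normalized counts (log scale) of the 14 class I genes with a mean of at least 50 in each of the 8 libraries. Points are libraries and short lines are group means; WT mice on HFD are the highest group for B2m (20665 and 20709), Tapbp and H2-T22 and the lowest for H2-Q4, H2-Q6 and H2-T23.

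On SD the members that passed the test between the genotypes were class II genes. Of 27 tested members 4 were higher and none lower in KO than in WT mice, beside 3.21% of all tested genes called higher and 1.5% called lower. These were H2-Eb1 (log2 fold change 1.03, SE 0.19, limma adjusted p = 0.0058), Cd74 (0.97, SE 0.18, limma adjusted p = 0.0076), H2-Ab1 (1.00, SE 0.21, limma adjusted p = 0.015) and H2-Aa (0.86, SE 0.22, limma adjusted p = 0.045), whose means were 1.83-fold to 2.07-fold those of WT mice. H2-DMa and Ciita had log2 fold changes of 1.65 (limma adjusted p = 0.058) and 1.52 (limma adjusted p = 0.057) and were not called. With quantile normalization both were called (limma adjusted p = 0.047 and 0.041), beside 3.28% of all genes called higher. The H2-Aa call was lost under each of the 3 other scalings. Its limma adjusted p was 0.098 with the same total, 0.056 with upper-quartile scaling and 0.066 with quantile normalization. With the WT pair on HFD as 1 sample 3 calls were left, beside 2.61% of all genes, and H2-Aa was lost (limma adjusted p = 0.082). Without WT replicate 1 on SD none of the 4 was called, and without WT replicate 2 or KO replicate 1 on SD 2 were, beside 1.93%, 1.63% and 2.03% of all genes called higher.

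None of the 17 tested class I genes was called between the genotypes on SD, and 1 of them had an unadjusted limma p below 0.05. Their log2 fold changes ran from -1.45 to 1.46, with a median of 0.04. B2m, which stood out on HFD, had 0.04 (SE 0.15, limma adjusted p = 0.94) on SD, and H2-T22 had 0.01 (SE 0.22, limma adjusted p = 0.99). The precision differed among them, with an SE of 0.15 for B2m, 0.47 for H2-M3 and 0.86 for H2-M2.

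**Figure D3:**
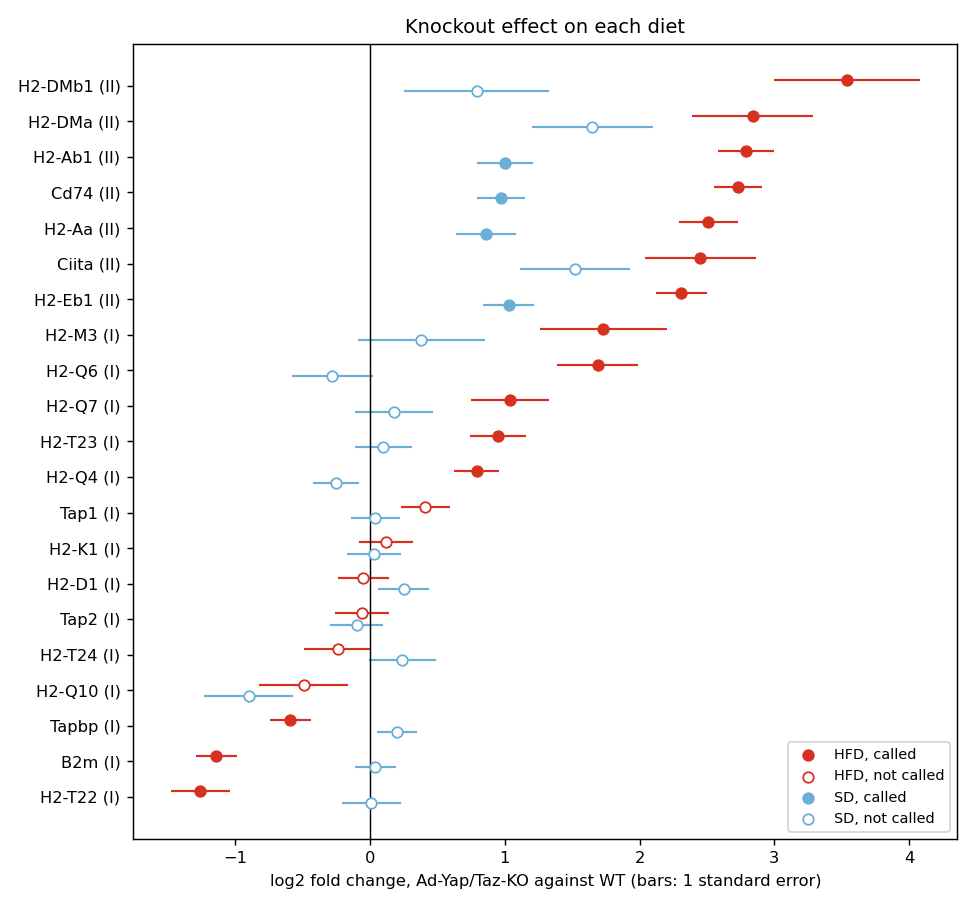
Log2 fold change of Ad-Yap/Taz-KO against WT mice on HFD (red) and on SD (blue) for the 21 members with a mean of at least 50, each with a bar of 1 SE, and with I or II for the class. Filled points passed the limma test, and class II genes, from 2.31 for H2-Eb1 to 3.54 for H2-DMb1, occupy the upper end on HFD.

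Whether the knockout acted differently on the 2 diets was tested as the interaction of genotype and diet. Of 27 tested members 7 had a more positive knockout effect on HFD than on SD and 3 a more negative one, beside 8.69% and 8.73% of all tested genes. The more positive ones were H2-DMb1 (2.75, SE 0.76, limma adjusted p = 0.028), H2-Q6 (1.97, SE 0.42, limma adjusted p = 0.011), H2-Ab1 (1.79, SE 0.30, limma adjusted p = 0.0044), Cd74 (1.76, SE 0.26, limma adjusted p = 0.003), H2-Aa (1.65, SE 0.31, limma adjusted p = 0.0073), H2-Eb1 (1.28, SE 0.27, limma adjusted p = 0.0098) and H2-Q4 (1.04, SE 0.23, limma adjusted p = 0.013). The more negative ones were H2-T22 (-1.27, SE 0.31, limma adjusted p = 0.017), B2m (-1.18, SE 0.22, limma adjusted p = 0.0064) and Tapbp (-0.79, SE 0.21, limma adjusted p = 0.024). With the WT pair on HFD as 1 sample 3 calls were left, those of Cd74, H2-Ab1 and H2-Aa, beside 1.96% of all genes called higher, and B2m had a limma adjusted p of 0.053. With libraries scaled to the same total 9 members were called higher and 2 lower, beside 13.9% and 3.29% of all genes. Quantile normalization lost the calls of H2-DMb1 (2.22, limma adjusted p = 0.067) and Tapbp (-0.46, limma adjusted p = 0.155). It gained that of H2-T23 (1.02, limma adjusted p = 0.041), beside 6.79% of all genes called higher and 4.98% called lower. Without WT replicate 1 on SD 4 were called higher, and without WT replicate 1 or 2 on HFD 3 were, beside 1.66%, 3.76% and 2.8% of all genes. The calls of the more negative members fell to 1 without any of WT replicate 1 or 2 on SD, WT replicate 1 or 2 on HFD, KO replicate 2 on SD or KO replicate 2 on HFD, and the share of all genes called lower was then 1.15% to 4.29%.

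In WT mice the diet moved the members in both directions. Of 27 tested members 3 were higher and 7 lower on HFD than on SD, beside 8.74% of all tested genes called higher and 9.22% called lower, and this comparison uses the same 2 WT libraries on HFD as the one between the genotypes. B2m (log2 fold change 0.89, SE 0.15, limma adjusted p = 0.0029), Tapbp (0.75, SE 0.15, limma adjusted p = 0.0056) and H2-T22 (0.83, SE 0.22, limma adjusted p = 0.02) rose. H2-Ab1 (-1.23, SE 0.21, limma adjusted p = 0.0029), Cd74 (-0.77, SE 0.18, limma adjusted p = 0.013), H2-Aa (-0.88, SE 0.22, limma adjusted p = 0.017) and H2-Eb1 (-0.61, SE 0.19, limma adjusted p = 0.04) fell, as did H2-Q4 (-1.12, SE 0.17, limma adjusted p = 0.0012), H2-Q6 (-1.47, SE 0.30, limma adjusted p = 0.0065) and H2-M2. For H2-M2 the ratio of WT on SD to WT on HFD was 19.3, with an exact 95% counting interval of 3.05 to 804 (limma adjusted p = 0.034).

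These diet effects in WT mice depend on how the WT pair on HFD is counted and on the scaling. With the pair as 1 sample H2-Q4 (limma adjusted p = 0.034) and H2-Ab1 (limma adjusted p = 0.05) were called lower, beside 1.75% of all genes, and no member was called higher, beside 1.12%. B2m then had a limma adjusted p of 0.059. With libraries scaled to the same total no member was called higher and 14 were called lower, beside 2.5% and 19% of all genes. Relative to the median of all genes under that scaling, B2m stood at 0.95, Tapbp at 0.82 and H2-T22 at 0.90, and H2-Ab1 at -1.16. The calls of lower members numbered 2 without WT replicate 1 on SD, 4 without WT replicate 2 on SD and 2 without either WT replicate on HFD, and those of higher members 1 without WT replicate 1 on SD and 0 without WT replicate 2 on HFD. The calls over all genes fell as well, to 1.7%, 3.63%, 3.76% and 2.73% lower without WT replicate 1 or 2 on SD and WT replicate 1 or 2 on HFD, and to 1.64% and 1.46% higher without WT replicate 1 on SD and WT replicate 2 on HFD.

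In KO mice the diet left nearly all members below the threshold. Cd74 was the 1 member called higher on HFD than on SD (log2 fold change 0.98, SE 0.18, limma adjusted p = 0.027) and none was called lower, beside 0.383% and 0.691% of all tested genes. With the WT pair on HFD as 1 sample Cd74 was not called (limma adjusted p = 0.11), beside 0.0426% of all genes called higher and 0.106% called lower. All 10 tested class II genes had positive values, from 0.21 to 1.47 with a median of 0.72, and 5 of them had an unadjusted limma p below 0.05. The 17 class I values ran from -0.44 to 1.15 with a median of 0.05. The 2 KO libraries on SD differ from each other for class II genes, 2715 against 1795 for Cd74, and without replicate 1 of them 5 members were called higher, beside 3.14% of all genes in place of 0.383%. Without replicate 2 of them, KO replicate 2 on HFD, or any 1 WT library none was, beside 0.016% to 0.144% of all genes.

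Summed over the class, the 11 class II genes made up 697 and 845 ppm in KO mice on HFD, 93.6 and 97.7 in WT mice on HFD, 582 and 348 in KO mice on SD and 223 and 250 in WT mice on SD. The mean was 8.06-fold higher in the knockout on HFD and 1.97-fold higher on SD. The 21 class I genes made up 2950 and 2630, 2590 and 2650, 3260 and 3000, and 3270 and 2770 ppm in the same order, and these groups overlap on both diets. As deposited, without conversion to a share of the total, the log2 ratio of the class I sum between the genotypes on HFD was -0.30 in place of 0.09. For the class II sum it was 2.62 in place of 3.0. The class II sum was between 0.0361 and 0.0368 of the class I sum in WT mice on HFD and between 0.236 and 0.322 in KO mice on HFD.

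Ratios between members do not depend on the scaling of a library. B2m over the summed heavy chains H2-K1 and H2-D1, each per kb of exon, was 2.62 and 2.60 in WT mice on HFD. In the other groups it was 1.06 and 1.3 in KO mice on HFD, 1.24 and 1.2 in KO mice on SD and 1.19 and 1.5 in WT mice on SD. The ratio in WT mice on HFD lies above all 6 other libraries. Within class II, H2-Aa over H2-Ab1 per kb ran from 0.332 to 0.596, Cd74 over H2-Ab1 per kb from 1.47 to 2.28 and H2-DMa over H2-Ab1 per kb from 0.0229 to 0.0648 over the 8 libraries. H2-Eb1 over H2-Ab1 per kb was 1.16 and 1.32 in WT mice on HFD, against 0.747 to 0.909 in the other 6 libraries. H2-T22 over H2-T23 was 2.46 and 2.64 in WT mice on HFD, against 0.467 to 1.22 elsewhere.

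Most macrophage markers moved with the class II genes. Of the 12 markers 10 were called higher in KO than in WT mice on HFD, with a median log2 fold change of 4.03, 9 were called higher on SD with a median of 1.97, and 9 were called lower on HFD than on SD in WT mice. The shares of all tested genes in these comparisons were 17.1%, 3.21% and 9.22%. With the WT pair on HFD as 1 sample the counts were 10, 10 and 1, beside 10.2%, 2.61% and 1.75%. Their sum was 1890 and 2060 ppm in KO mice on HFD, 169 and 180 in WT mice on HFD, 1960 and 1030 in KO mice on SD and 397 and 390 in WT mice on SD, and none of the 12 was at 0 in both libraries of any group. Lyz2, the lysozyme of myeloid cells, had 10872 and 9376 normalized counts in KO mice on HFD, 625 and 578 in WT mice on HFD, 14639 and 7251 in KO mice on SD and 1453 and 1616 in WT mice on SD. Mrc1, the mannose receptor, had 3591 and 4523, 700 and 658, 3336 and 2363, and 1186 and 1298 in the same order. The 2 markers not called between the genotypes on HFD were Mertk and Cd163. Mertk had log2 fold changes of -0.22 on HFD and -0.35 on SD, with the KO libraries below the WT libraries on both diets. Cd163 had 0.29 and 0.38. Mertk, at 1238 and 1291 normalized counts in WT mice on HFD, is part of the marker sum. The group means stood in the same order for both sums, highest in KO mice on HFD and lowest in WT mice on HFD, and the 2 KO groups overlap in macrophage markers but not in class II. In bulk RNA, fewer cells of a type and less RNA per cell cannot be told apart, and the part of macrophages in the class II results was not tested.

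The class II sum divided by the macrophage marker sum was lower in the knockout than in WT mice on both diets. It was 0.368 and 0.410 in KO mice on HFD, 0.555 and 0.544 in WT mice on HFD, 0.297 and 0.338 in KO mice on SD and 0.561 and 0.641 in WT mice on SD. All 4 knockout libraries thus lie below all 4 WT libraries, which is a description without a test. The marker sum includes Mertk, which was not called higher in the knockout.

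Markers of dendritic cells, B cells, and T and NK cells had lower sums than the macrophage markers in every library. Sums over lists of different genes do not measure the number of cells. The 8 dendritic cell markers summed to 110 and 120 ppm in KO mice on HFD, 27 and 31.9 in WT mice on HFD, 129 and 69.4 in KO mice on SD and 62.6 and 60.6 in WT mice on SD. On HFD 2 of them, Itgax and Batf3, were called higher in KO than in WT mice, beside 17.1% of all tested genes. Itgax, which macrophages of fat also make, had 1237 and 896 against 67 and 52 normalized counts. Zbtb46, taken here as a marker of classical dendritic cells, had 495 and 639 against 406 and 525 and was not called. Over the 8 libraries Zbtb46 had 406 to 763 normalized counts, whereas the markers of the list other than Itgax and Zbtb46 had 0 to 132. Which cells made the Zbtb46 transcripts was not tested. The 6 B cell markers summed to 0.673 to 7.79 ppm and the 9 T and NK cell markers to 2.16 to 16.4 ppm over the 8 libraries, and 1 of 4 tested markers of each was called higher on HFD, Cd79a and Cd4, beside the same 17.1%. In WT mice on HFD 5 of the 9 T and NK cell markers and 1 of the 6 B cell markers were at 0 in both libraries. Cd79b had 3 to 30 normalized counts and Trac 2 to 19.

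The markers of the remaining cell types were called to unequal extents between the genotypes on HFD, beside 17.1% of all tested genes called higher and 15.1% called lower. The 8 adipocyte markers were present in every library, and 7 of them were called lower in KO than in WT mice on HFD, with a sum of 9240 and 5300 against 15800 and 15600 ppm, and 9300 and 12200 against 11300 and 11900 on SD, where none was called. Plin1, which coats lipid droplets, had 23643 and 12435 against 56852 and 57222 normalized counts on HFD, and Fabp4, a fatty acid carrier, 64080 and 36542 against 64916 and 56520. Of the 6 fibroblast and progenitor markers Pdgfra, Col1a1 and Col3a1 were called higher on HFD, with Col1a1 at 19039 and 18472 against 4131 and 4189 and Col3a1 at 35507 and 39287 against 13083 and 13180. Of the 6 endothelial markers 1 was called higher, Pecam1, at 5640 and 8935 against 3800 and 4095, and none with the WT pair as 1 sample, whereas Cdh5 had 6544 and 9819 against 5307 and 5546. Of the 5 mesothelial markers Wt1 was called higher, at 310 and 531 against 46 and 54, while Upk3b had 9 and 93 against 36 and 58. Msln, another mesothelial marker, had 0 and 2 against 15 and 19 and was called lower, but not with the WT pair as 1 sample (limma adjusted p = 0.17). The part of these cell types in the class I and class II results was not tested.

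**Figure D4:**
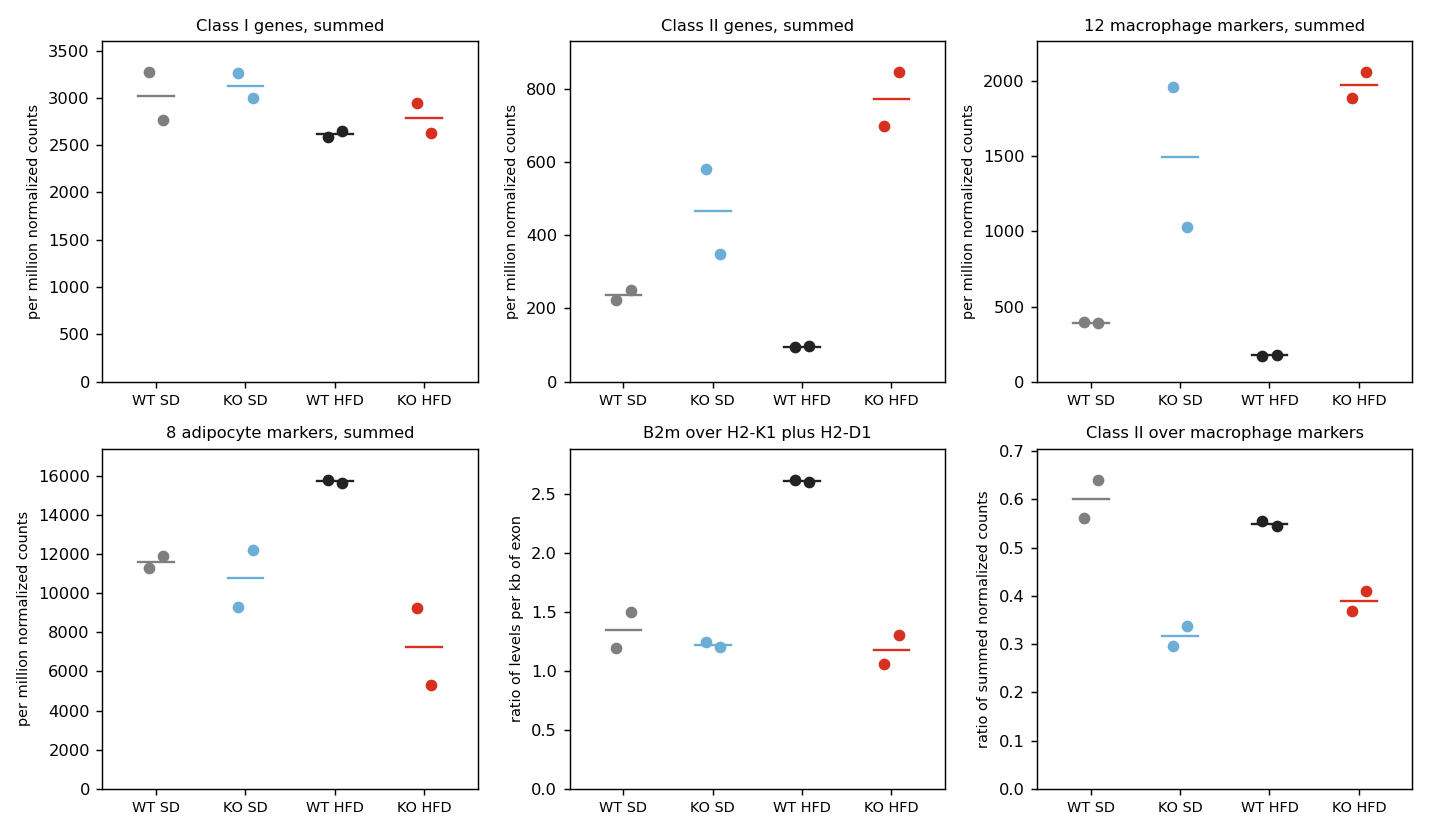
Each point is 1 of the 8 libraries and short lines are group means. The upper row and lower left panel give sums in ppm (per 1000000 normalized counts) for class I genes, class II genes, 12 macrophage markers and 8 adipocyte markers, and the other panels give B2m over H2-K1 plus H2-D1 per kb and class II over macrophage markers; the B2m ratio is 2.62 and 2.60 in WT mice on HFD, against 1.06 to 1.5 elsewhere.

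Other genes of the class I pathway, a list of 12 that includes regulators, immunoproteasome subunits and chaperones, mostly did not pass the test between the genotypes. On HFD 1 of the 12 was called higher and none lower, beside 17.1% and 15.1% of all tested genes, with a median log2 fold change of 0.10. On SD none was called, beside 3.21% and 1.5%. The call was Psmb8, an immunoproteasome subunit, with 382 and 311 normalized counts in KO mice on HFD against 110 and 120 in WT mice on HFD, and 372 and 318 against 293 and 224 on SD (log2 fold change on HFD 1.58, SE 0.24, limma adjusted p = 0.00035). Psmb9, its partner subunit, had 183 and 107 against 97 and 118 on HFD and was not called (log2 fold change 0.38, SE 0.31, limma adjusted p = 0.37). Nlrc5, the class I coactivator, had 1577 and 1251 against 1173 and 1389 on HFD (0.14, SE 0.19, limma adjusted p = 0.61).

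Irf1, an interferon-regulated factor that acts on class I promoters, followed the diet in WT mice. It had 5293 and 5338 normalized counts in WT mice on HFD and 17033 and 13257 in WT mice on SD, with 6095 and 6382 in KO mice on HFD and 9500 and 12184 in KO mice on SD. The fall of 1.5 on the log2 scale in WT mice (SE 0.17, limma adjusted p = 0.00028) was called also with the WT pair as 1 sample (limma adjusted p = 0.017), while B2m rose and H2-Q4 fell in the same comparison.

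Other genes of the class II pathway included processing enzymes, costimulatory molecules and the factors of the X and Y boxes. Of these 16 genes 8 were called higher and 1 lower in KO than in WT mice on HFD, beside the 17.1% and 15.1% of all tested genes, with a median log2 fold change of 0.84. On SD 6 were called higher and none lower, beside 3.21% and 1.5%. With the WT pair on HFD as 1 sample 7 were called higher on HFD and 5 on SD, beside 10.2% and 2.61%. Ctss, the cathepsin that trims the invariant chain, had 9124 and 8034 normalized counts in KO mice on HFD, 297 and 266 in WT mice on HFD, 8408 and 5380 in KO mice on SD and 576 and 491 in WT mice on SD. Its log2 fold change was 4.92 on HFD (SE 0.20, limma adjusted p = 1.9e-08) and 3.66 on SD (SE 0.20, limma adjusted p = 7.6e-07). Cd86, a costimulatory ligand, had 300 and 414 against 106 and 100 on HFD (log2 fold change 1.77, SE 0.27, limma adjusted p = 0.00032) and 312 and 242 against 147 and 124 on SD (1.02, SE 0.27, limma adjusted p = 0.049, and 0.09 with the WT pair as 1 sample). Nfya, a subunit of the factor that binds the Y box, had 731 and 843 against 370 and 307 on HFD and was called higher (1.22, SE 0.21, limma adjusted p = 0.00094), and was named after its values were seen. Rfx5, a factor that binds the X box, had 255 and 313 against 211 and 231 on HFD and was not called (0.35, SE 0.23, limma adjusted p = 0.25).

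Class I-like genes outside the complex were listed with 9 symbols, of which 6 were tested. On HFD 2 were called higher and 3 lower in the knockout, beside 17.1% and 15.1% of all tested genes, and on SD none was called. Cd1d1, which presents lipids, had 792 and 262 normalized counts in KO mice on HFD against 2825 and 3082 in WT mice (log2 fold change -2.69, SE 0.36, limma adjusted p = 0.00012). Hfe, a regulator of iron uptake, had 1384 and 554 against 3016 and 2841 (-1.74, SE 0.33, limma adjusted p = 0.0017), and Mr1, which presents vitamin B metabolites, 403 and 272 against 918 and 895 (-1.45, SE 0.24, limma adjusted p = 0.00056). For these 3 genes the KO and WT libraries on HFD do not overlap. Procr, the endothelial protein C receptor, was higher with 736 and 872 against 194 and 233 (1.91, SE 0.27, limma adjusted p = 0.00022), as was Ulbp1, a ligand of the NKG2D receptor, with 49 and 77 against 22 and 5 (2.41, SE 0.67, limma adjusted p = 0.014). These 5 genes were named after their values were seen. Fcgrt, the heavy chain of the neonatal Fc receptor that also pairs with beta-2 microglobulin, was the most abundant of the list, with 2665 and 2336 normalized counts in KO mice on HFD, 2983 and 3162 in WT mice on HFD, 2541 and 2666 in KO mice on SD and 3000 and 2979 in WT mice on SD. It was not called on HFD (log2 fold change -0.30, SE 0.14, limma adjusted p = 0.12). Azgp1, a secreted class I-like protein, was listed at 0 in 7 libraries and at 6 in 1.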

How the data were processed

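RNA of isolated epididymal adipocytes was measured in 8 libraries. The authors removed ribosomal RNA, trimmed single-end reads with Reaper, aligned them to mm10 (GRCm38) with STAR 2.5.2b and counted them per gene with featureCounts 1.5.1, excluding reads over several genes or places. The authors then scaled the counts of each library by its DESeq2 1.14.1 size factor and deposited the results as whole numbers, which are treated here as a score and called normalized counts. Because of the rounding a count test was not run.

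Groups came from the labels. One limma 3.58.1 fit in R 4.3.3 held all 4 group means (18800 of 30387 genes, 4 residual and 8.59 prior degrees of freedom, pseudocount 1). An exact permutation test of 2 against 2 libraries cannot go below p = 0.333. The fit was tested on simulated data. Members, lists and tests were chosen with earlier results of these data known. Members with a mean of at least 50 are given in every library, those from 5 to 50 by name where called, and of the lists the regulators and processing genes named above and the 2 most abundant markers of each cell type. Exon lengths, overlaps and shared 75-base stretches come from GENCODE vM21, which held 30259 of the 30387 identifiers. Python 3.11.15, numpy 2.4.6, pandas 2.3.3 and matplotlib 3.10.9 were used.
Alternatives were other pseudocounts, filters, scalings, thresholds and eBayes settings, a replicate block, and each library left out.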

Additional observations from a re-analysis of the deposited data

Results flagged for a closer look

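For 10 members the effect of the knockout differed between HFD and SD in limma's interaction test, 7 of them more positive and 3 more negative, beside 8.69% and 8.73% of all tested genes. Counted as 1 sample, the WT pair on HFD left 3 calls, those of Cd74, H2-Ab1 and H2-Aa, beside 1.96% of all genes called higher and 0.787% called lower. The difference on the log2 scale was 2.75 for H2-DMb1, 1.97 for H2-Q6, 1.79 for H2-Ab1, 1.76 for Cd74, 1.65 for H2-Aa, 1.28 for H2-Eb1 and 1.04 for H2-Q4. It was -1.27 for H2-T22, -1.18 for B2m and -0.79 for Tapbp. Groups of 2 libraries are too small for a search of single libraries that stand apart.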

How the results depend on the processing

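Results between the genotypes on HFD depended least on the processing: 13 higher and 3 lower members became 11 to 13 and 2 to 3 with libraries left out in turn, and 1 lower with quantile normalization. No called fold change of a member turned its sign under any alternative. On SD the H2-Aa call was lost under each of the 3 other scalings, and H2-DMa and Ciita were gained with quantile normalization. The 4 higher members on SD became 1 without a filter on low values, 0 in a fit of these groups only, 2 at an adjusted p of 0.01, and 0 to 4 with libraries left out. For the diets in WT mice, the 3 higher members became 0 with the same total, quantile normalization or the WT pair on HFD as 1 sample (0 to 3 with libraries left out), and the 7 lower ones 2 without a filter, 14 with the same total, 2 with the pair as 1 sample and 3 at 0.01 (2 to 7). The 1 higher member between the diets in KO mice became 0 without a filter, in a fit of these groups only, with the pair as 1 sample and at 0.01 (0 to 5). The interactions became 2 higher and 1 lower without a filter, 3 and 0 with the pair as 1 sample, and 4 and 1 at 0.01 (3 to 10 higher and 1 to 3 lower). Fold changes on HFD that were not called turned their sign for H2-D1 (0.34 with the same total, 0.04 with upper-quartile scaling, 0.58 with quantile normalization, -0.33 to 0.23 with libraries left out), Tap2 (0.32, 0.03, 0.02, and -0.25 to 0.13), H2-T24 (0.14 with the same total), H2-M9 (0.28 and 0.02 with the same total and upper-quartile scaling), H2-Ob (0.06 with the same total) and H2-K1 (-0.15 to 0.39 with libraries left out). H2-M9 and H2-Ob also turned positive without KO replicate 1 or WT replicate 2 on HFD, and H2-M9 with a pseudocount of 8. The log2 ratio of the class I sums was 0.09, with -0.3 as deposited, -0.21 with upper-quartile scaling, -0.03 without the most abundant gene and 0.0 to 0.17 with HFD libraries left out, an alternative added after seeing the data. That of class II was 3.0, with 2.62 as deposited, 2.71 with upper-quartile scaling and 2.87 to 3.14 with HFD libraries left out. A lone library left in a group was assumed to vary like the other groups, and the cause of these shifts was not tested.

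Replicate numbers did not pair the libraries (correlations of deviations from -0.11 to 0.04). A replicate block left 13 higher and 3 lower members on HFD, 3 and 0 on SD, where H2-Aa was lost, 3 and 7 between the diets in WT mice, 1 and 0 in KO mice, and 7 and 3 interactions. With 2 libraries a group, low members such as H2-M2 rest on few reads.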
